A study of Mus musculus with 42 samples.

Results

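Antioxidant enzyme genes, 9 in number, were examined in Akt1+/- and wild-type mice in 3 tissues (liver, quadriceps muscle, visceral fat). They were the superoxide dismutases Sod1, Sod2 and Sod3, catalase (Cat), the glutathione peroxidases Gpx1, Gpx3 and Gpx4, and the peroxiredoxins Prdx3 and Prdx5. The rule took every non-control probe of the array that carries the name of 1 of these 9 genes, out of 27597 genes named on the array. All 9 passed the filter on dim probes in all 3 tissues. The mice were female, on a C57BL/6 background, and either wild type or heterozygous for a deletion of Akt1 that is carried in every cell of the body. Each tissue was measured on 14 arrays, with 3 wild-type and 3 Akt1+/- arrays at 8 weeks and 4 of each at 35 weeks, the older age as the labels give it (the methods give a later age). The labels do not say whether each array holds the RNA of a single mouse, so the p-values measure the spread between arrays.

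Superoxide is formed when electrons leak from the respiratory chain or are passed to oxygen by oxidases. Superoxide dismutases turn it into hydrogen peroxide, which catalase in peroxisomes, glutathione peroxidases and peroxiredoxins then reduce to water. Akt phosphorylates FoxO transcription factors and keeps them out of the nucleus, and Sod2 and Cat are known FoxO target genes. The level of these genes in mice with less Akt1 is therefore a question the design poses directly. For Akt1+/- mice the paper reported no change in FoxO phosphorylation, and by real-time PCR no difference in liver Cat or Sod2. That PCR was not compared with the arrays here.

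Akt1 itself was first compared as a check of the labels. Its log2 difference between Akt1+/- and wild-type mice over both ages was -0.67 ± 0.07 (SE) in liver (limma adjusted p = 0.0023) and -0.56 ± 0.07 in fat (0.0044). Muscle gave -0.58 ± 0.10 and missed the threshold (limma adjusted p = 0.076). Defining markers of the labelled tissues were present. Albumin (Alb) was at a log2 level of 9.45 ± 0.17 (SD, n = 14) in liver, muscle creatine kinase (Ckm) at 9.25 ± 0.16 in muscle and adiponectin (Adipoq) at 8.21 ± 0.15 in fat. Some markers of other tissues were also detected. On the liver arrays Mylpf and Fabp4 were well above background on all 14 and Acta1 on 9, whereas the muscle genes Ckm, Myh4 and Tnnt3 and the adipocyte genes Adipoq, Plin1, Cfd and Retn were so on 1 to 3 arrays each. On the fat arrays Acta1 (5.26 ± 0.86), Mylpf and Tnnt3 were well above background on all 14, Myh4 on 9 and Ckm on 6, and of the hepatocyte genes Alb and Cyp2e1 were so on all 14, Apoa1 on 12 and Ttr on 0. Of the hepatocyte genes on the muscle arrays, Cyp2e1 was well above background on 14, Alb on 13, Apoa1 on 5 and Ttr on 1. The adipocyte genes Adipoq, Fabp4, Plin1, Cfd and Retn were well above background on all 14 muscle arrays; their part in the muscle values was not tested. Each array had between 57.2 and 69.2% of its probes well above background and 0 saturated spots.

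All levels are log2 intensities relative to the 75th percentile of the array, so that a level of 0 equals that percentile and a difference of 1 is a doubling. A level of 1 gene can be compared between samples, but levels of different genes cannot, because each probe binds with its own strength. In whole tissue, fewer cells of a type and less RNA per cell cannot be told apart.

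Of the 9 genes, 4 were lower in Akt1+/- liver, where 6.16% of all genes were called and 2.49% were called lower. The sequences just before the start sites of these 4 are shown here because the genotype calls in liver fell on them. Each is the 250 bases before the RefSeq gene start on GRCm38.p6, read 5′ to 3′ on the strand of the gene. Capitals mark matches, on either strand, to the FoxO element GTAAACA, the insulin response sequence CAAAACA, the antioxidant response element core TGACNNNGC, the GC box GGGCGG or the CCAAT box CCAAT, the last 2 of which were added after the first 3 had been searched.
Sod1, chr16:90220512-90220761, plus strand: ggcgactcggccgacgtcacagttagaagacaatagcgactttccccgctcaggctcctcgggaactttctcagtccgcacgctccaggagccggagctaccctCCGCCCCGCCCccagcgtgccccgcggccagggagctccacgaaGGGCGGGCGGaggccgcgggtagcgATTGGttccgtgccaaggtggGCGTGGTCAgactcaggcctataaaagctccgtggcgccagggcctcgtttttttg
Sod2, chr17:13007589-13007838, plus strand: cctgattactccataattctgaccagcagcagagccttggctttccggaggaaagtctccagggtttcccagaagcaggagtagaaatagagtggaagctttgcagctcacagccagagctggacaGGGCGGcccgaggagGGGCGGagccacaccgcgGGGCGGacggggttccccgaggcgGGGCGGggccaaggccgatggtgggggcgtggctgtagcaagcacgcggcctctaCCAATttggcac
Gpx1, chr9:108338830-108339079, plus strand: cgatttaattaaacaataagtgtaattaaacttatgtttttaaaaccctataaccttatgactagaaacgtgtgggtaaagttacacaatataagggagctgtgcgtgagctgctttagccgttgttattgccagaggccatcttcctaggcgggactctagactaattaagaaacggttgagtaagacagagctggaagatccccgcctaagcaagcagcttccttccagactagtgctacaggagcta
Prdx5, chr19:6910107-6910356, minus strand: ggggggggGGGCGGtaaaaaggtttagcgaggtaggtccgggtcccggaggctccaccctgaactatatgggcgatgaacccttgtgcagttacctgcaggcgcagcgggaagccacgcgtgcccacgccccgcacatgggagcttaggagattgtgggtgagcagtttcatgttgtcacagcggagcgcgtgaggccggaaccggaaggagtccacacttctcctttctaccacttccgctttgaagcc

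The windows of these 4 genes differed in composition. Sod2 held 4 GC boxes and, nearer to the start, a CCAAT box, and its GC content was 63.6%. Sod1 held 4 GC boxes in 2 overlapping pairs, a CCAAT box on the opposite strand and the only antioxidant response element core among the members (on the opposite strand), with a GC content of 66.4%. Prdx5 held 1 GC box. Gpx1 held none of the 5 motifs and had a GC content of 42%, against a median of 52.4% over all 32851 windows.

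No window of a member held the FoxO element or the insulin response sequence, including the single windows of Cat, Gpx3 and Prdx3 and the 4 windows of Gpx4. Of all windows, 3.17% held the FoxO element, 5.56% the insulin response sequence, 10.2% the antioxidant response element core, 32.7% the GC box and 33.9% the CCAAT box. These letters being absent from 250 bases says nothing of FoxO binding elsewhere at the gene. A window was found for 8 of the 9 members, and Sod3 had no entry.

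In liver, Sod1, Sod2, Gpx1 and Prdx5 were lower in Akt1+/- than in wild-type mice over both ages, to between 0.78 and 0.80 of the wild-type level. Of all 17561 tested genes, 6.16% were called in either direction and 2.49% were called lower. The difference of Cat did not pass the test. The median log2 difference of the 9 members was -0.31, against 0.01 over all tested genes. The second median covers genes of every level. Brighter liver genes ran lower, with medians of -0.11 between levels of 4 and 6, -0.19 between 6 and 8 and -0.18 above 8.

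Sod1 encodes the copper-zinc superoxide dismutase of the cytosol. In liver at 8 weeks it was at 9.12, 9.20 and 9.30 in wild-type mice and at 8.86, 8.82 and 8.76 in Akt1+/- mice, so that the groups did not overlap. At 35 weeks it was at 8.70, 8.82, 9.05 and 8.96 in wild-type against 8.55, 8.80, 8.57 and 8.65 in Akt1+/- mice, and the highest Akt1+/- array lay above the lowest wild-type array. The difference over both ages was -0.32 ± 0.07 (SE, limma adjusted p = 0.030), or 0.80-fold. This is the value of the brightest Sod1 probe. The other probes gave -0.10 ± 0.13 and -0.08 ± 0.14, and quantile normalization gave -0.02, none of them called.

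Sod2 is the manganese superoxide dismutase of the mitochondrial matrix. It was at 6.80, 6.97 and 7.07 in wild-type against 6.69, 6.70 and 6.52 in Akt1+/- liver at 8 weeks. At 35 weeks it was at 6.54, 6.84, 6.59 and 6.71 against 6.24, 6.47, 6.29 and 6.23. The groups did not overlap at either age, and the difference over both ages was -0.34 ± 0.08 (limma adjusted p = 0.028).

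Gpx1 is the selenium-dependent glutathione peroxidase of cytosol and mitochondria. Its liver level at 8 weeks was 8.93, 9.03 and 9.19 in wild-type against 8.60, 8.68 and 8.44 in Akt1+/- mice, without overlap. At 35 weeks the wild-type arrays read 8.52, 8.76, 8.75 and 8.64 and the Akt1+/- arrays 8.52, 8.70, 8.39 and 8.30, with overlap. The difference over both ages was -0.33 ± 0.08 (limma adjusted p = 0.036). By age it was -0.48 ± 0.12 at 8 weeks and -0.19 ± 0.11 at 35 weeks, but the interaction did not pass the test (0.29 ± 0.16, limma adjusted p = 0.46).

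Prdx5 is a peroxiredoxin found in mitochondria, peroxisomes and cytosol. It was at 4.36, 4.53 and 4.79 in wild-type against 4.35, 3.94 and 4.13 in Akt1+/- liver at 8 weeks, and at 4.45, 4.40, 4.37 and 4.37 against 4.24, 4.20, 4.0 and 4.01 at 35 weeks. All Akt1+/- arrays lay below all wild-type arrays of the same age, at 8 weeks by a margin of 0.01 between 4.36 and 4.35. The difference over both ages was -0.35 ± 0.09 (limma adjusted p = 0.037).

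Cat, the peroxisomal enzyme that splits hydrogen peroxide, had a log2 difference of -0.31 ± 0.11 in liver that did not pass the test (limma adjusted p = 0.11). The wild-type arrays were close together, at 6.5, 6.62 and 6.51 at 8 weeks and 6.31, 6.42, 6.32 and 6.38 at 35 weeks. The Akt1+/- arrays were spread more widely, at 6.18, 6.53 and 5.83 and at 5.89, 6.38, 5.89 and 6.26. Of these 7 arrays, 1 at each age lay among the wild-type values.

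**Figure D1:**
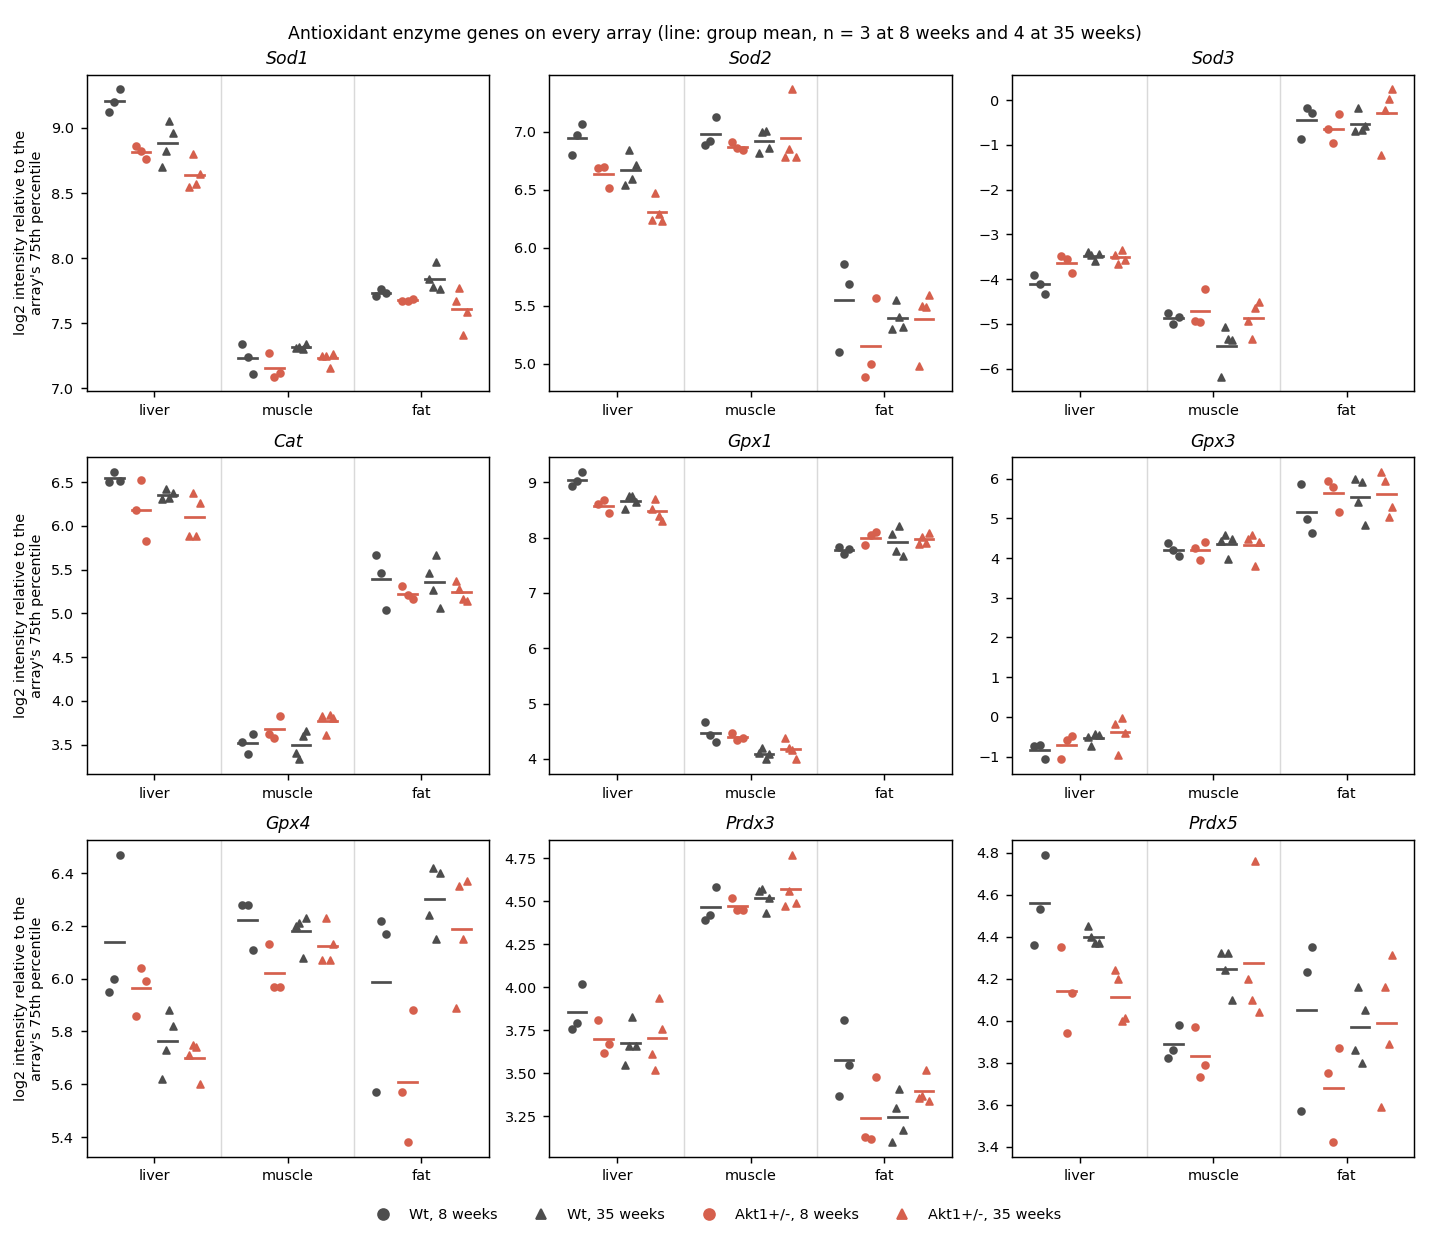
Log2 intensity relative to the 75th percentile of the array (vertical axis, a scale of its own for each gene) on all 42 arrays for the 9 genes, by tissue. Grey is wild type, red is Akt1+/-, circles are 8 weeks, triangles are 35 weeks and lines are group means. In liver, Sod2 and Prdx5 of Akt1+/- mice lie below wild type at both ages.

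The other 4 genes did not pass the test in liver over both ages. Gpx4, which reduces lipid hydroperoxides in membranes, had a log2 difference of -0.12 ± 0.09, and Prdx3, the peroxiredoxin of mitochondria, of -0.06 ± 0.08. The secreted glutathione peroxidase Gpx3 had a difference of 0.13 ± 0.15. Sod3, the secreted superoxide dismutase of the extracellular space, had a difference of 0.22 ± 0.09 (limma adjusted p = 0.14). Sod3 was at -3.90, -4.11 and -4.33 in wild-type against -3.48, -3.55 and -3.86 in Akt1+/- liver at 8 weeks, without overlap, whereas the groups overlapped at 35 weeks.

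At 8 weeks alone, 0 of the 9 genes passed the test in liver, where 2.15% of all genes were called. At 35 weeks alone 0 passed, where 3.50% of all genes were called. Unadjusted limma p values below 0.05 were reached by Gpx1, Prdx5, Sod1, Sod2 and Sod3 at 8 weeks and by Prdx5, Sod1 and Sod2 at 35 weeks, as they were by 3660 and 2984 of all 17561 tested genes. Over both ages, the two-way test of the methods called Gpx1, Prdx5, Sod1 and Sod2 after Benjamini-Hochberg adjustment, among 910 genes in all. The same 4 members were below an unadjusted threshold of 0.01, among 1910 genes. At each age alone the two-way test called 0 members after adjustment. At the methods' own unadjusted threshold of 0.01 the two-way test gave Gpx1, Prdx5, Sod1 and Sod3 at 8 weeks, among 1451 genes in all, and Sod2 at 35 weeks, among 1250. The arrays of the genotypes did not overlap for 5 members at 8 weeks (Gpx1, Prdx5, Sod1 and Sod2 lower, Sod3 higher), against 25.1% of all tested genes, and for 2 at 35 weeks, against 12.8%. The interaction of genotype and age was called for 0 members, against 0.575% of all genes, with 1 member (Sod3) at an unadjusted p below 0.05 and 0 by the two-way test at either threshold.

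The liver calls lay close to the threshold. When slides were treated as random, 0 members were called (adjusted p from 0.065 to 0.078 for the 4 genes), and with the replicate number as a block only Sod2 was called (adjusted p = 0.049), with differences that moved by less than 0.01. With normexp background correction and quantile normalization Prdx5 alone was called, Sod1 fell to -0.02, Gpx1 to -0.19 and Sod2 to -0.19. When an array was left out, 0 members were called without wild-type replicate 2 or 3 or Akt1+/- replicate 3 at 8 weeks, or without wild-type replicate 2 or 4 or Akt1+/- replicate 1 or 4 at 35 weeks. Only Sod2 was called without replicate 3 of either genotype at 35 weeks, and 4 members were called without any 1 of the other 5 arrays (Cat in place of Prdx5 without Akt1+/- replicate 2 at 8 weeks), with differences of the 4 genes between -0.40 and -0.29 in all 14 cases. In liver no slide held both genotypes, so that genotype and slide cannot be told apart there.

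**Figure D2:**
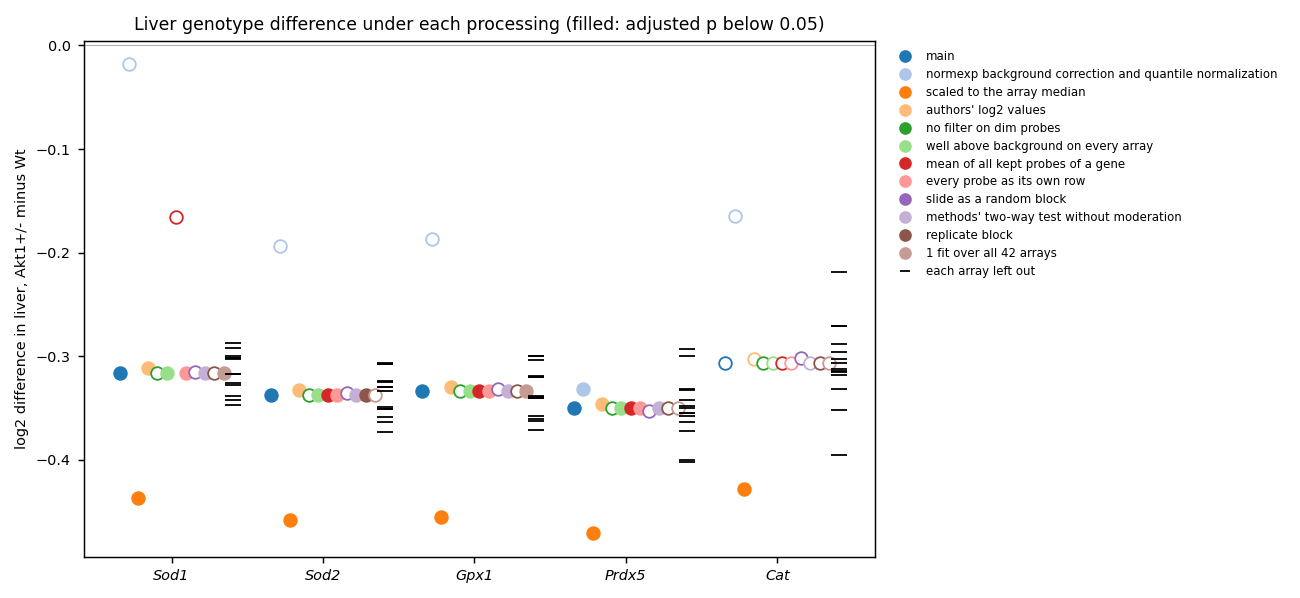
Log2 difference between Akt1+/- and wild-type liver over both ages (vertical axis) for the 4 called genes and Cat under the main processing and each alternative, with black dashes for each of 14 arrays left out. Filled points passed an adjusted p of 0.05. Quantile normalization moved Sod1 to -0.02, and scaling to the median moved all 5 genes further from 0.

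In liver, the genotype difference of all genes moved with their level. Among the 2763 tested genes with a mean log2 level below -4 the median difference was 0.26 and 24.1% were lower in Akt1+/- mice. Among the 435 genes between 6 and 8, where Cat and Sod2 lie, it was -0.19 and 87.4% were lower, with 15.4% called lower. Among the 80 genes above 8, where Gpx1 and Sod1 lie, it was -0.18, with 96.2% lower and 18.8% called lower. Prdx5 and Gpx4 lie among 1148 genes between 4 and 6, with a median of -0.11 and 7.49% called lower.

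The median share of probes well above background was higher in Akt1+/- than in wild-type liver, at 60.1 against 57.6% at 8 weeks and 65.2 against 62.5% at 35 weeks. Scaling to the median in place of the 75th percentile moved all liver differences by -0.12 and added Cat to the calls. The part of these shifts in the members' differences was not tested.

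**Figure D3:**
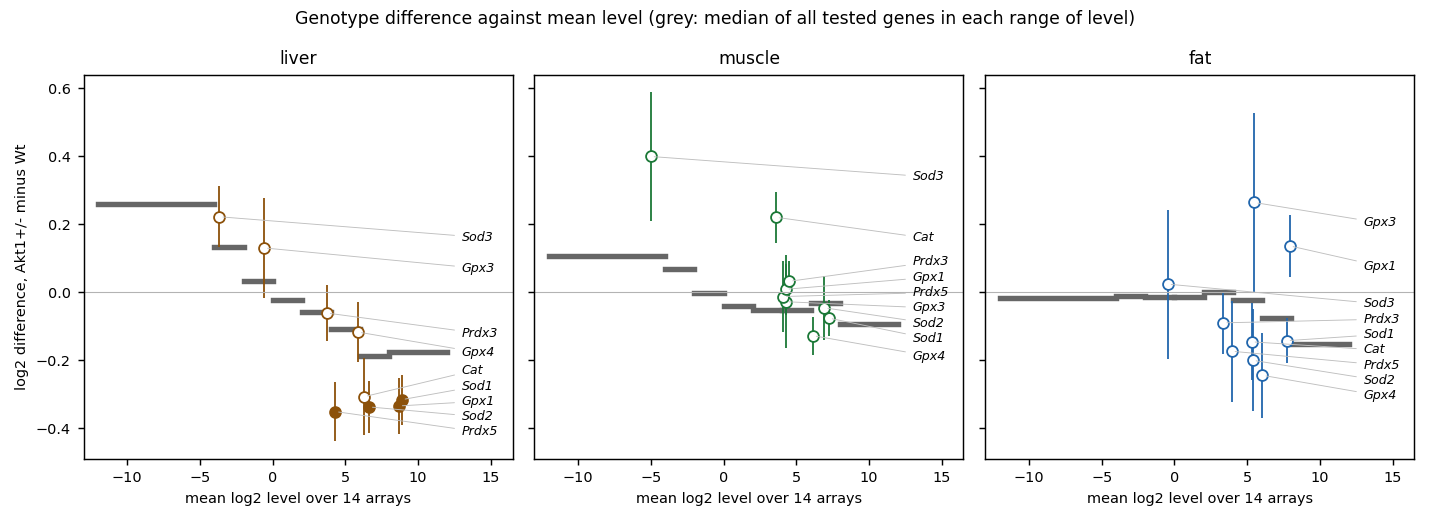
Log2 difference between Akt1+/- and wild-type mice over both ages (vertical axis, bars are SE) against mean log2 level (horizontal axis) for the 9 genes in each tissue. Grey lines are medians of all tested genes in each range of level, filled points passed an adjusted p of 0.05. In liver the medians fell from 0.26 to -0.18 as level rose.

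Markers of other cell types were compared between the genotypes in liver. Each sum adds intensities before the log2, so that its brightest gene weighs most (Lyz2 among the macrophage markers, at 6.05 in liver). The 4 macrophage markers summed to log2 levels from 5.43 to 5.86 in wild-type against from 6.12 to 6.46 in Akt1+/- mice at 8 weeks, without overlap. At 35 weeks they lay from 6.41 to 6.74 and from 6.20 to 6.95. The 4 lymphocyte markers at 35 weeks lay from -1.01 to -0.71 in wild-type and from -0.69 to -0.31 in Akt1+/- mice, without overlap, and overlapped at 8 weeks. The 4 hepatocyte markers measured lay from 10.282 to 10.453 in wild-type against 10.18 to 10.281 in Akt1+/- mice at 8 weeks, narrowly without overlap. At 35 weeks they lay from 10.19 to 10.59 and from 10.05 to 10.35, with overlap. Their part in the members' differences was not tested.

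In muscle, 0 of the 9 genes passed the test for genotype over both ages, and so did 0% of all 17139 tested genes. At an unadjusted p below 0.05 limma gave 2 members and 3161 genes in all. The 2 members were Cat, at 0.22 ± 0.07 (limma adjusted p = 0.18), and Gpx4, at -0.13 ± 0.06. Cat was at 3.53, 3.39 and 3.62 in wild-type against 3.62, 3.57 and 3.83 in Akt1+/- muscle at 8 weeks, and at 3.40, 3.33, 3.60 and 3.65 against 3.83, 3.61, 3.84 and 3.81 at 35 weeks, with overlap at both ages. Sod3 was at 0.40 ± 0.19, but its probe was well above background on 8 of 14 muscle arrays and passed the filter only through Akt1+/- mice at 8 weeks (3 of 3 arrays), so that the filter favours a higher value in Akt1+/- mice. The other 6 differences lay between -0.08 and 0.03, and Sod1, Gpx1, Gpx3, Prdx3 and Prdx5 changed sign under another processing.

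By age, the muscle test called 0 members at 8 weeks, against 0% of all genes, and 0 at 35 weeks, against 0.0934%. Gpx4 at 8 weeks and Cat and Sod3 at 35 weeks had an unadjusted p below 0.05, as did 2846 and 1547 of all genes, and the two-way test called 0 members at either age and either threshold. The p of Sod3 at 35 weeks compares values near background, since its probe was well above background there on 1 of 4 wild-type and 2 of 4 Akt1+/- arrays. The arrays of the genotypes did not overlap for 0 members at 8 weeks, against 23.3% of all genes. At 35 weeks Sod1 alone did not overlap, against 5.47%, with 7.31, 7.32, 7.3 and 7.34 in wild-type against 7.25, 7.25, 7.16 and 7.26 in Akt1+/- mice, a difference of -0.08 ± 0.07. The interaction was called for 0 members and 0% of genes, with 0 members at an unadjusted p below 0.05. On the slide that held all 3 wild-type arrays and 1 Akt1+/- array at 8 weeks, the members' differences lay between -0.09 and 0.11. At 35 weeks no muscle slide held both genotypes, so that genotype and slide cannot be told apart in muscle at that age.

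In fat, 0 of the 9 genes passed the test for genotype over both ages, against 0.773% of all 18366 tested genes, with 0 members at an unadjusted limma p below 0.05 and 0 by the two-way test at either threshold. The members' differences lay between -0.24 ± 0.13 for Gpx4 and 0.26 ± 0.26 for Gpx3. Gpx1 was at 0.14 ± 0.09 and Sod1 at -0.14 ± 0.07. The test called 0 members at 8 weeks, against 1.80% of all genes, 0 at 35 weeks, against 1.70%, and 0 for the interaction, against 1.50%. Prdx3 at 8 weeks and for the interaction, and Sod1 at 35 weeks, had an unadjusted p below 0.05, as did 4456 genes in all at 8 weeks, 3737 for the interaction and 2272 at 35 weeks. The two-way test called 0 members in each of these comparisons after adjustment, and at its unadjusted threshold of 0.01 it gave Sod1 at 35 weeks, among 953 genes.

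The fat arrays of the genotypes did not overlap for 2 members at 8 weeks, against 27.1% of all genes, and for 0 at 35 weeks, against 9.83%. Sod1 was at 7.71, 7.76 and 7.73 in wild-type against 7.67, 7.67 and 7.69 in Akt1+/- fat at 8 weeks, a difference of -0.06 ± 0.10. Gpx1 was at 7.83, 7.70 and 7.80 and at 7.86, 8.04 and 8.10, a difference of 0.23 ± 0.14. On the slide that held 1 wild-type and all 3 Akt1+/- arrays at 8 weeks, Gpx1 differed by 0.20 and Sod1 by -0.05. Gpx3 differed by 0.995 there, against 0.47 over all 6 arrays, and Prdx5 by -0.66, against -0.37. Cat had the opposite sign there, at 0.19 against -0.17, and the other 8 members kept theirs.

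**Figure D4:**
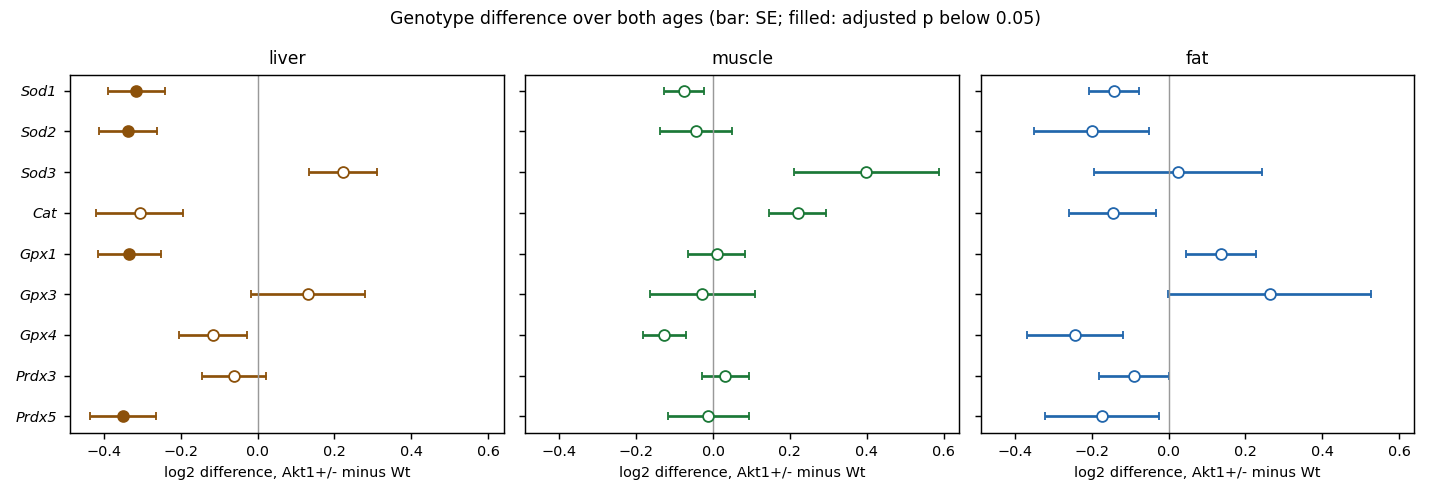
Log2 difference between Akt1+/- and wild-type mice over both ages (horizontal axis, bars are SE, 14 arrays per tissue) for the 9 genes in liver, muscle and fat. Filled points passed a limma adjusted p of 0.05. All 4 filled points are in liver and below 0.

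The genotype differences were then compared between tissues in 1 fit over all 42 arrays. Gpx1 was called between liver and fat, where the liver difference minus the fat difference was -0.47 ± 0.11 log2 units (limma adjusted p = 0.015), and 4.21% of all 19862 genes were called in that comparison. This call held in all 42 cases with an array left out and in all other settings (adjusted p from 0.0029 to 0.047). The liver and fat genotype differences of Gpx1 were -0.33 and 0.14. Genotype cannot be told apart from slide in liver or in muscle at 35 weeks, nor from slide and scan day in fat at 35 weeks.

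Between liver and muscle 0 members were called, against 0.952% of all genes, although Cat differed by -0.53 ± 0.15 (limma adjusted p = 0.066). Cat was called there without Akt1+/- liver replicate 2 at either age or without wild-type fat replicate 3 at 8 weeks. Between muscle and fat 0 members were called, against 0.765%. At an unadjusted p below 0.05, limma gave Cat, Gpx1 and Sod1 between liver and muscle (3239 of all 19862 genes), Gpx1 and Sod1 between liver and fat (3895 genes) and Cat between muscle and fat (3102 genes). The two-way test was not run across tissues. For Sod1, Sod2 and Prdx5 the liver difference minus that in fat did not pass the test, at -0.17 ± 0.08, -0.14 ± 0.16 and -0.18 ± 0.17. In fat, summed cell type markers also differed between the genotypes. At 35 weeks adipocyte markers lay from 10.53 to 10.72 in wild-type and from 10.11 to 10.39 in Akt1+/- fat, and fibroblast markers from 8.39 to 8.62 and from 8.15 to 8.28. Kidney tubule markers, of which 1 of 4 was well above background on every array, lay from -3.96 to -3.60 and from -3.35 to -2.91. Hepatocyte markers lay from 6.45 to 6.80 and from 6.27 to 6.31 at 8 weeks and from 6.65 to 6.94 and from 6.23 to 6.49 at 35 weeks, and erythroid markers at 8 weeks from 6.86 to 7.95 and from 6.498 to 6.82, all without overlap. The hepatocyte sum in fat is nearly all Cyp2e1 (mean level 6.51, against 0.34 for Alb, -4.76 for Apoa1 and -7.74 for Ttr). In muscle at 8 weeks adipocyte (7.18 to 7.44, against 7.51 to 8.22), brown adipocyte and endothelial markers were higher and erythroid markers lower in Akt1+/- mice without overlap. The adipocyte sum in muscle is mostly Fabp4 (mean level 7.26), with Cfd next (5.59) and Adipoq far dimmer (1.93). The brown adipocyte sum in muscle is nearly all Cidea (mean level 2.30), since Ucp1 was well above background on 1 of 14 muscle arrays. The part of these markers in the differences between tissues was not tested.

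With age, 5 members changed in liver, where 35.0% of all genes were called. Sod2 fell by 0.30 ± 0.08 log2 units from 8 to 35 weeks (limma adjusted p = 0.0083), Gpx4 by 0.32 ± 0.09 (0.014), Sod1 by 0.25 ± 0.07 (0.020) and Gpx1 by 0.24 ± 0.08 (0.041). Sod3 rose by 0.38 ± 0.09 (limma adjusted p = 0.0065). Gpx4 was at 5.95, 6.00 and 6.47 in wild-type mice at 8 weeks and at 5.62, 5.73, 5.88 and 5.82 at 35 weeks, and at 5.86, 6.04 and 5.99 and 5.71, 5.75, 5.74 and 5.60 in Akt1+/- mice. In both genotypes all older arrays of Gpx4 lay below all younger arrays. The liver age difference of all genes also moved with their level. Its median was 0.40 below a level of -4 and 0.14 between -4 and -2, where Sod3 lies, against -0.06 between 4 and 6 (Gpx4), -0.10 between 6 and 8 (Sod2) and -0.08 above 8 (Gpx1 and Sod1), with 61.1, 70.1 and 65.0% of genes lower at 35 weeks in these last 3 ranges. The part of this trend in the members' age differences was not tested.

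Sod3 in wild-type liver went from a mean of -4.11 ± 0.21 (SD, n = 3) to -3.48 ± 0.09 (n = 4), whereas the Akt1+/- liver went from -3.63 ± 0.20 to -3.51 ± 0.13. The difference between these changes did not pass the test (-0.52 ± 0.18, limma adjusted p = 0.22). Sod3 lost its call with normexp and quantile normalization (0.03), in the fit over 42 arrays and with scaling to the median, which moved all liver age differences by -0.20. Sod2 and Gpx4 were called in all alternatives and with any 1 array left out. Gpx1 was not called with quantile normalization, without the filter on dim probes or when slides were treated as random, and was called in 5 of 14 cases with an array left out, but not without wild-type replicate 2 or 3 or Akt1+/- replicate 1 or 2 at 8 weeks, or wild-type replicate 1 or 4 or Akt1+/- replicate 1, 3 or 4 at 35 weeks. Sod1 was not called with quantile normalization (-0.04) or with the mean of its probes. Summed macrophage markers went without overlap in wild-type liver from between 5.43 and 5.86 to between 6.41 and 6.74, whereas in Akt1+/- liver they overlapped, between 6.12 and 6.46 and between 6.20 and 6.95. Adipocyte markers went in wild-type liver from between 2.71 and 2.90 to between 1.93 and 2.40, and in Akt1+/- liver from between 2.68 and 2.999 to between 2.13 and 2.65. In liver this sum is nearly all Fabp4 (mean level 2.46), as Plin1 (-5.69), Cfd, Adipoq and Retn were far dimmer. In Akt1+/- liver, lymphocyte markers (from -1.13 to -0.93, then from -0.69 to -0.31) and fibroblast markers (from 5.95 to 6.13, then from 6.18 to 6.34) were also higher at 35 weeks without overlap, and in wild-type liver endothelial markers were (from 2.21 to 2.68, then from 2.70 to 2.76). The liver fibroblast sum is nearly all Dcn (mean level 6.22), as Col3a1 (0.06), Pdgfra (-0.99) and Col1a1 (-1.08) were far dimmer. The part of any of them in the members' age differences was not tested.

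In muscle, 2 members changed with age, where 30.9% of all genes were called. Sod1 was counted by its brightest probe, which did not pass. With every probe as its own row, its dim probes passed, at -0.48 ± 0.10 (limma adjusted p = 0.0030) and -0.34 ± 0.11 (0.036). Gpx1 fell by 0.30 ± 0.07 (limma adjusted p = 0.010), from 4.67, 4.44 and 4.30 to 4.11, 4.19, 3.99 and 4.08 in wild-type mice and from 4.47, 4.35 and 4.37 to 4.37, 4.19, 4.17 and 3.99 in Akt1+/- mice. Prdx5 rose by 0.40 ± 0.11 (limma adjusted p = 0.013), from 3.82, 3.86 and 3.98 to 4.32, 4.24, 4.32 and 4.10 in wild-type mice and from 3.97, 3.73 and 3.79 to 4.20, 4.10, 4.76 and 4.04 in Akt1+/- mice. The older arrays of Prdx5 lay above the younger arrays in both genotypes. Both calls held in all alternatives. Summed fibroblast markers in muscle went from between 7.70 and 8.01 to between 7.40 and 7.62 in wild-type mice and from between 7.73 and 7.86 to between 7.39 and 7.64 in Akt1+/- mice. Erythroid markers went from between 5.55 and 6.07 to between 4.02 and 4.68 in wild-type mice and overlapped in Akt1+/- mice. In wild-type muscle, adipocyte markers (from 7.18 to 7.44, then from 7.61 to 7.95) and muscle fibre markers (from 11.78 to 11.94, then from 11.955 to 12.03) were higher at 35 weeks without overlap, and both overlapped in Akt1+/- muscle. Their part in the age differences was not tested.

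In fat, only Gpx4 changed with age, rising by 0.45 ± 0.13 (limma adjusted p = 0.028), where 19.1% of all genes were called. It was at 5.57, 6.22 and 6.17 and then 6.24, 6.42, 6.15 and 6.40 in wild-type mice, and at 5.57, 5.38 and 5.88 and then 5.89, 6.35, 6.15 and 6.37 in Akt1+/- mice. The call was lost without wild-type replicate 1 or Akt1+/- replicate 1 or 2 at 8 weeks, or wild-type replicate 2 or Akt1+/- replicate 2 or 4 at 35 weeks, and with quantile normalization (0.26, adjusted p = 0.072). Gpx4 thus had opposite age differences in liver and fat, -0.32 and 0.45, a contrast that was not tested. Summed fibroblast markers went in Akt1+/- fat from between 8.57 and 8.86 to between 8.15 and 8.28, without overlap, and overlapped in wild-type fat. Summed erythroid markers went in wild-type fat from between 6.86 and 7.95 to between 5.99 and 6.60, and overlapped in Akt1+/- fat. The dim kidney tubule markers went in wild-type fat from between -3.34 and -2.60 to between -3.96 and -3.60, and overlapped in Akt1+/- fat. Their part in the age difference of Gpx4 was not tested. In every tissue the 2 ages were scanned on different days, so that age and scan day cannot be told apart.

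**Figure D5:**
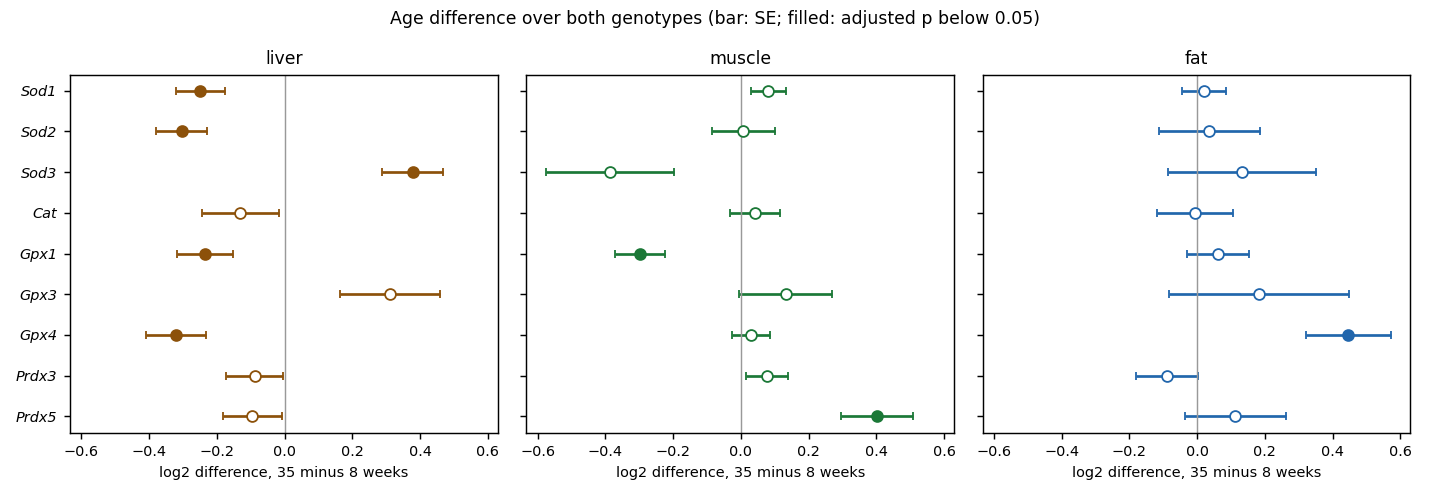
Log2 difference between 35 and 8 weeks over both genotypes (horizontal axis, bars are SE, 14 arrays per tissue) for the 9 genes in liver, muscle and fat. Filled points passed a limma adjusted p of 0.05. Gpx1 fell in liver and muscle, and Gpx4 fell in liver and rose in fat.

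Between tissues, all 9 members were called between liver and muscle, against 85.8% of all 19862 genes, 8 between liver and fat, against 86.3%, and 7 between muscle and fat, against 87.7%. Apart from 1 slide, each slide held 1 tissue.

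Gpx3, known best as a plasma enzyme, was lowest in liver, with levels between -1.07 and -0.03 on 14 arrays, against 3.81 to 4.57 in muscle and 4.63 to 6.17 in fat. The log2 difference was -6.10 ± 0.14 (SE) for liver minus fat and -4.89 ± 0.14 for liver minus muscle. Sod3 was highest in fat, between -1.22 and 0.25, against -4.33 to -3.35 in liver and -6.18 to -4.23 in muscle. Liver minus fat was -3.21 ± 0.13 and muscle minus fat -4.51 ± 0.13 (-1.92 and -2.31 with quantile normalization). The muscle levels include 6 arrays on which the probe was not well above background, so that the size of the muscle difference is not exact.

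Gpx1 was lowest in muscle, between 3.99 and 4.67, against 7.66 to 8.21 in fat and 8.30 to 9.19 in liver. The liver level was 21.2-fold the muscle level, a difference of 4.41 ± 0.06 log2 units. Cat followed the same order of muscle, fat and liver, with 3.33 to 3.84, 5.04 to 5.67 and 5.83 to 6.62, and was 6.42-fold higher in liver than in muscle. With quantile normalization the order of fat and liver was lost for Cat (liver minus fat 0.01) and turned for Gpx1 (-0.14). Sod1 was also lowest in muscle (7.09 to 7.34), then fat (7.41 to 7.97), then liver (8.55 to 9.30). Under the main scaling the ranges of the 3 tissues did not overlap for any of these 3 genes. The share of all genes whose ranges separate in this way was not counted, and 85.8 to 87.7% were called between tissues. The other Sod1 probes did not share the order of muscle and fat.

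Sod2 and Prdx3 had another order. Sod2 was highest in muscle, between 6.78 and 7.37, against 6.23 to 7.07 in liver (liver minus muscle -0.29 ± 0.08) and 4.89 to 5.86 in fat (muscle minus fat 1.56 ± 0.08, or 0.86 with quantile normalization). Prdx3 was likewise highest in muscle, between 4.39 and 4.77, against 3.52 to 4.02 in liver and 3.1 to 3.81 in fat. Liver minus muscle was -0.77 ± 0.05 and muscle minus fat 1.14 ± 0.05.

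Prdx5 and Gpx4 differed little across tissues under the main scaling. Prdx5 ranged from 3.42 to 4.79 over all 42 arrays, with liver above muscle by 0.24 ± 0.08 and above fat by 0.38 ± 0.08, and muscle minus fat did not pass the test (0.14 ± 0.08, limma adjusted p = 0.12). Gpx4 ranged from 5.38 to 6.47. Liver minus muscle was -0.25 ± 0.07, and neither liver minus fat (-0.13 ± 0.07, limma adjusted p = 0.068) nor muscle minus fat (0.12 ± 0.07, limma adjusted p = 0.099) passed the test.

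Comparisons with fat depended on the normalization. With quantile normalization, liver minus fat of Cat went from 0.99 to 0.01, Gpx1 from 0.77 to -0.14, Prdx3 from 0.37 to -0.13, Prdx5 from 0.38 to -0.12 and Gpx4 from -0.13 to -1.17. Liver minus fat shrank from 1.17 to 0.26 for Sod1 and from 1.27 to 0.37 for Sod2. Muscle minus fat turned to -0.25 for Prdx5 and -0.61 for Gpx4, shrank from 1.56 to 0.86 for Sod2 and went from -0.48 to -1.36 for Sod1 and from -1.21 to -1.84 for Gpx3. Liver minus fat of Gpx4 was 0.01 with median scaling, and muscle minus fat of Sod1 was 0.01 with the mean of its probes. The liver-to-muscle differences kept their direction in every alternative that gave a value, with none for Sod3 where a probe had to be well above background on every array, and that of Prdx5 lost its call with quantile normalization (0.14, limma adjusted p = 0.086). Liver minus muscle went from -0.25 to -0.56 for Gpx4 and from -0.29 to -0.49 for Sod2. The differences of Sod3 shrank, from 1.30 to 0.38 for liver minus muscle, from -3.21 to -1.92 for liver minus fat and from -4.51 to -2.31 for muscle minus fat.

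Sod1 was measured by 3 probes, which were read separately. The probe used above, A_51_P367381, is at chr16:90115111-90115170 on mm8, the build of the array. The others, A_51_P425205 (printed in 10 spots) and A_52_P3581, are at chr16:90111887-90111946 and chr16:90112795-90112854, and follow another transcript record. Both were far dimmer, with liver means of -2.90 and -0.62 against 8.87, although well above background on all 42 arrays.

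The dim probes disagreed with the bright probe in part. Muscle minus fat was 0.43 ± 0.09 (limma adjusted p = 5.1e-05) for A_51_P425205 and 0.10 ± 0.09 for A_52_P3581, against -0.48 ± 0.04 for the bright probe. Their liver genotype differences were -0.10 ± 0.13 and -0.08 ± 0.14, and their muscle age differences were -0.48 ± 0.10 (limma adjusted p = 0.0030) and -0.34 ± 0.11 (0.036), whereas the bright probe changed by 0.08 ± 0.05 with age in muscle. With the mean of the 3 probes the liver genotype difference of Sod1 was -0.17 and was not called. The other 8 members had 1 probe each.

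In liver, Gpx1, Sod1 and Sod2 moved together from array to array. The correlation over 14 liver arrays, all genotypes and ages included, was 0.91 between Gpx1 and Sod1, 0.88 between Gpx1 and Sod2 and 0.88 between Sod1 and Sod2. Cat, Gpx4 and Prdx5 correlated with each of these 3 at 0.72 to 0.77. Sod3 ran against them, with -0.82 with Gpx4 and -0.78 with Sod1, and so did Gpx3, with -0.68 with Sod2, -0.63 with Gpx1 and -0.62 with Sod1. The correlation of Prdx3 was 0.45 with Sod1, 0.34 with Gpx1, 0.30 with Sod2 and 0.55 with Gpx4. In fat, Prdx5 went with Sod2 (0.84), Gpx4 (0.82) and Sod3 (0.81), and Gpx3 ran against Sod2 (-0.70). These arrays share group differences, slides and scaling, and the values are descriptive.

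The genes most like each member over all 42 arrays, after the mean of each tissue was subtracted, were also listed. Prdx5 was most like Uqcr11 (0.90), Cox8a (0.88) and Uqcrq (0.86), all small subunits of respiratory chain complexes. Sod2 was most like Uqcrq (0.86), Uqcr10 (0.83) and Ndufa9 (0.83), again respiratory chain genes, and Prdx3 was like Echdc1 (0.77) and Hspd1 (0.73). Sod1 was most like a probe with no gene name (0.86) and the ribosomal protein gene Rpl41 (0.84).

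Gpx4 was most like Rex1bd (0.88), a transcript known by its accession (0.86) and Ap2s1 (0.84), and Cat like Nars2 (0.74), Pgrmc1 (0.69) and Evi5 (0.66). Gpx3 was most like Rabl3 (0.66), Pcdhga7 (0.64) and Ube2cbp (0.62). Sod3 was most like S100a11 (0.75), Prelp (0.73), a proteoglycan of the extracellular matrix, and LOC670046 (0.71), and Gpx1 like LOC670811 (0.74), a probe without a symbol (0.71) and D8Ertd738e (0.69). No member was among the 3 genes most like another member.

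The wider antioxidant system was described through 8 lists with 92 genes, all of them on the array. In liver, 88 of these genes were tested and 1 was lower and 0 higher in Akt1+/- mice over both ages, with a median log2 difference of -0.07, against 6.16% of all genes called and 2.49% called lower. The gene was Sirt3, the mitochondrial deacetylase, at -0.32 ± 0.08 (limma adjusted p = 0.039). By list, the counts called in liver were 0 of 10 other superoxide and peroxide enzymes, 0 of 6 genes of the thioredoxin system, 0 of 8 of glutathione synthesis and recycling, 0 of 15 of the Nrf2 pathway, 0 of 8 of selenoprotein synthesis, 1 of 13 regulators, 0 of 13 peroxisomal genes and 0 of 15 oxidant sources. In muscle and in fat 0 of 85 tested genes were called for genotype over both ages, where the shares over all genes were 0 and 0.773%. At single ages, the calls in liver were 1 oxidant source higher at 8 weeks, against 2.15% of all genes called in either direction, and 1 gene of the thioredoxin system lower at 35 weeks, against 3.50%. Fat had 1 oxidant source lower and 1 higher at 8 weeks, against 1.80%, and 1 gene of selenoprotein synthesis lower at each age, against 1.70% at 35 weeks. The interaction was called below 0 for 1 gene of the thioredoxin system in liver, against 0.575% of all genes called. In fat it was called below 0 for 1 gene of selenoprotein synthesis and 1 oxidant source, against 1.50%.

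Median genotype differences of these lists in liver lay between -0.12 for the Nrf2 pathway and 0.0010 for the regulators. With age, 19 of the 88 genes fell and 13 rose in liver, 9 of 85 fell and 13 rose in muscle, and 6 of 85 fell and 8 rose in fat, where 35.0, 30.9 and 19.1% of all genes were called. Among the other peroxide and superoxide enzymes, Prdx6 fell in liver by 0.26 ± 0.08 and Ccs, the copper chaperone for Sod1, by 0.24 ± 0.08, while Prdx4 and Gpx8 fell in muscle by 0.64 ± 0.07 and 0.57 ± 0.07 and Prdx2 rose in fat by 0.30 ± 0.09. In selenoprotein synthesis, on which the glutathione peroxidases depend, 3 of 8 genes fell and 2 rose in liver, with Sephs2, which makes the selenium donor, lower by 0.40 ± 0.09. These genes were named after their values were seen.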

How the data were processed

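Tissues of Akt1+/- and wild-type mice were measured on 42 Agilent 1-colour arrays. The intensity deposited for each spot had been background-subtracted by the authors with Feature Extraction (9.1 in the submitters' processing notes, 9.5.3.1 per the file headers) and not normalized between arrays. The authors' deposited log2 table correlated at 0.999 or more with the scanner values of each array and had column medians from -3.70 to -3.28. Its columns had a 75th percentile from -0.0010 to 0.0029, the same scaling as used here, and it was used as an alternative. Log2 intensity minus the 75th percentile of each array was the measure. R 4.3.3 and limma 3.58.1 fitted a mean for every group, tissue by tissue, with Benjamini-Hochberg adjustment over all tested genes and a threshold of 0.05. A probe was kept where 3 or more arrays of any group were well above background, and the brightest probe stood for a gene. Tissues were compared in 1 fit over all arrays.

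Probes were named through RefSeq, except 8072 of 41174 that kept the array's own name, and promoter sequences came from RefSeq on GRCm38.p6. Precision is limited by the number of arrays. The members and the gene lists were chosen with earlier results of these data known. Named genes were all members with every probe, Akt1, up to 4 called genes per list for genotype, and the 3 genes most like each member, some of which are not reported here. Arrays of the same replicate number deviated together at 35 weeks (correlations from 0.105 to 0.526 in 12 pairs, where the number is the position on the slide) and not at 8 weeks (-0.195 to 0.073 in 9 pairs). Alternatives were normexp (offset 50) with quantile normalization, median scaling, the authors' values, other filters and probe summaries, blocks for slide or replicate number, the methods' two-way test, 1 fit over 42 arrays and each array left out. The fit was tested on simulated data. Python 3.11.15, pandas 2.3.3, numpy 2.4.6 and matplotlib 3.10.9 were used.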

Additional observations from a re-analysis of the deposited data

Results flagged for a closer look

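The genotype difference of Gpx1 in liver minus that in fat was -0.47 ± 0.11 log2 units in 1 fit over 42 arrays (limma adjusted p = 0.015). The genotype difference of Gpx1 was -0.33 ± 0.08 in liver, which passed the test, and 0.14 ± 0.09 in fat, which did not (limma adjusted p = 0.42). Of 54 groups of 4 arrays that were examined for an array far from the others, 4 held 1, and chance gives about 1 in 20. In muscle of Akt1+/- mice at 35 weeks, Cat was at 3.61 on replicate 2, against 3.81 to 3.84 on the other 3 arrays, Sod1 at 7.16 on replicate 3, against 7.25 to 7.26, and Sod2 at 7.37 on replicate 3, against 6.78 to 6.85. Replicate 3 of that group was also the highest of its group for Prdx5 (4.76) and Prdx3 (4.77) and the lowest for Gpx3 (3.81). In fat of Akt1+/- mice at 35 weeks, Sod2 was at 4.98 on replicate 1, against 5.49 to 5.59.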

How the results depend on the processing

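Over the alternatives for the members' genotype differences, 270 of 296 values kept their direction and side of the threshold, 17 lost and 1 gained a call, and 8 changed sign. Most of these values belong to genes that were never called. All 17 losses fell on the 4 genes called in liver, as did all 35 losses among 378 values with 1 array left out. The number of members called for genotype over both ages in liver (4) was 1 with normexp and quantile normalization, 0 without a filter on dim probes, 0 when slides were treated as random and 2 in the joint fit of 42 arrays. With the replicate number as a block it was 1, and the block changed no other count of members. It was 5 with median scaling, and from 0 to 4 with 1 array left out. At 8 weeks in liver the count (0) was 2 with median scaling and 2 in the fit over 42 arrays, and at 35 weeks 2 with median scaling. With quantile normalization the age count was 2 in liver and 0 in fat, and 1 member was called for genotype in muscle at 8 weeks. Median scaling called 2 members for the difference between liver and fat. With 1 array left out the age count ranged from 4 to 6 in liver and 0 to 1 in fat, and the count for the difference between liver and muscle from 0 to 1. The cause of these shifts was not tested, except that fewer arrays or more genes enter the adjustment where arrays are left out or the filter is dropped.

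Differences that changed sign were small. With quantile normalization these were Gpx4 in liver (0.015) and, in muscle, Gpx1 (-0.00307), Gpx3 (0.019), Prdx5 (0.027) and Sod1 (0.038). With median scaling they were Gpx1 (-0.066) and Prdx3 (-0.042) in muscle, and with the mean of its probes Sod1 in muscle (0.0054). With 1 array left out, differences ranged in muscle from -0.033 to 0.058 for Gpx1, -0.093 to 0.057 for Gpx3, -0.00060 to 0.061 for Prdx3 and -0.094 to 0.027 for Prdx5, and in fat from -0.084 to 0.18 for Sod3. Signal over background limits Sod3 in muscle.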
